A study of Mus musculus with 41 samples.

Results

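The 38 genes described here carry out the uptake, activation and oxidation of fatty acids, or switch that pathway. They were measured in mouse mammary tumors that arose under diets low or high in animal fat. The genes were chosen by name, each matched exactly to a gene name on the array, and where a gene had several probes the brightest on average was used. All 38 passed the filter on dim probes, and they are 38 of the 20913 genes tested. In groups by role they are 5 genes of the carnitine shuttle, 4 acyl-CoA dehydrogenases, 7 hydratases, hydroxyacyl-CoA dehydrogenases, oxidases and thiolases, 5 auxiliary and electron transfer genes, 8 regulators and switches, 5 genes of uptake and binding, and 4 acyl-CoA synthetases.

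The tumors grew from mammary epithelium of Trp53-null donors, lacking the tumor suppressor p53, that was transplanted into the cleared fat pads of wild-type female BALB/c mice. The recipients' fat pad, vessels and immune cells therefore carried Trp53. Mice ate a low-fat diet throughout (LFD), a high-fat diet throughout (HFD), the high-fat diet in puberty only (HFD-LFD) or the high-fat diet in adulthood only (LFD-HFD), and tumors were labelled as early or late in onset. The 29 epithelial tumors, labelled p53 variable, were 8 LFD, 8 HFD, 7 HFD-LFD and 6 LFD-HFD tumors, with 14 early and 15 late. The 12 spindle cell tumors, labelled p53 spindle-like, were 3 of each regimen, with 3 early and 9 late. Of the early ones 2 were LFD-HFD and 1 was HFD-LFD, so that onset and regimen cannot be fully told apart there. By adult diet this set 14 epithelial tumors on HFD against 15 on LFD, and by pubertal diet 15 against 14. For 3 pairs of tumors whose labels share a number it is not known whether both grew in 1 mouse, and p-values measure the spread between tumors.

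As background, long-chain fatty acids enter a cell through Cd36 and the Slc27a transport proteins, are held by the binding proteins Fabp3 and Fabp5, and are activated to acyl-CoA by the Acsl synthetases. Cpt1a or Cpt1b, Slc25a20 and Cpt2 carry the acyl group into mitochondria as carnitine esters. There the beta-oxidation spiral removes acetyl-CoA in repeated rounds, through the acyl-CoA dehydrogenases (Acadvl, Acadl, Acadm and Acads), the trifunctional protein made of Hadha and Hadhb, Hadh and the thiolase Acaa2, and electrons pass through Etfa, Etfb and Etfdh to the respiratory chain. Ppara and Ppard are nuclear receptors that switch on many of these genes when fatty acids bind, and Ppargc1a is their coactivator. Adipocytes, muscle and liver are rich in the pathway, and the mammary epithelium lies in a fat pad.

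Promoter windows from 250 bases before to 50 after each start were found in the RefSeq tables of GRCm38.p6 for 32 of the 38 genes, in 35 windows. The first window is shown because the most alike pair of enzyme genes in these tumors, Hadha and Hadhb, are read in opposite directions from starts 273 bases apart on chromosome 5, and their windows share 228 bases (capitals). The other windows are shown because Ucp3 and Ucp2, neighbors on chromosome 7, gave the most alike values of all pairs. The Ucp3 values are those of 1 probe of 2. Capitals in the Ucp3 window mark both matches, on either strand, to the half-site AGGTCA that nuclear receptors of the PPAR kind bind, and the Ucp2 window held no match.
Hadhb, chr5:30155003-30155302, plus strand: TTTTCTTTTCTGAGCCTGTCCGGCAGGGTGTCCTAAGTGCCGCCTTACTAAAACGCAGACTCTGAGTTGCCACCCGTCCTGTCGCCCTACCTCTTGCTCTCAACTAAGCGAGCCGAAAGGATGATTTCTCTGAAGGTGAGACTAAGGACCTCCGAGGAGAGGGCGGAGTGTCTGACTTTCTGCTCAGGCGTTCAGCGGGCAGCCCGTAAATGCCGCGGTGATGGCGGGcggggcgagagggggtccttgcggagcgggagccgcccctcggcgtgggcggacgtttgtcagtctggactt
Ucp3, chr7:100472741-100473040, plus strand: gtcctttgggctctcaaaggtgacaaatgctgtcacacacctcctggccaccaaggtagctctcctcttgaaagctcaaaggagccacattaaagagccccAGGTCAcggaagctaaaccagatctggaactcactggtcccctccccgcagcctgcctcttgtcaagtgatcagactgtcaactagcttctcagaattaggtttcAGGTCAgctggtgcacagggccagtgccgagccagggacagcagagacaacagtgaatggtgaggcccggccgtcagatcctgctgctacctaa
Ucp2, chr7:100493108-100493407, plus strand: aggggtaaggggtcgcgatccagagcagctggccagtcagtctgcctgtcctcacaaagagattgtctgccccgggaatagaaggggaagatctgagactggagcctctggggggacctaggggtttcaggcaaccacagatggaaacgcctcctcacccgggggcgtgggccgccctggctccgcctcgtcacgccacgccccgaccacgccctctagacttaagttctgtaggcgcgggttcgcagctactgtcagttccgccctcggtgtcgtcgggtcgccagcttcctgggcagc
The letters AGGTCA occurred in 5 of the 35 windows, those of Acadm, Acadvl, Cd36, Cpt1a and Ucp3, and in 16.3% of all 32851 windows in the table. The full PPAR element searched, a pair of AGGTCA copies in the same direction with any base between them, occurred in 13 windows of the table (0.0396%) and in none of the 35, and the letters TCAAGGTCA of the estrogen-related receptors in 0.423% of all and none of the 35. The binding element of NRF1, a regulator of mitochondrial genes, was present in the windows of Etfdh and Ppara and in 0.971% of all windows. Both strands were searched each time, AGGTCA is contained in the longer receptor motifs, and a match is a description of letters only.

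Each array carried 1 tumor and a common reference, Universal Mouse Reference RNA pooled from mouse cell lines, and every value below is log2 of the tumor signal over the reference signal unless another scale is named. The direction follows the sample labels, which give Cy5 to the tumor, and opposes the methods text, which gives Cy5 to the reference. The Y-linked genes Ddx3y and Eif2s3y, which female tissue lacks, were lower in Cy5 on all 41 arrays. Spots well above background made up 52.4% to 94.9% of an array in the tumor channel, and precision is limited by how many arrays there were. No scan session held both histologies, and these cannot be told apart. Epithelial tumors lay on 8 slides, of which 7 carried a single regimen, so that slide and regimen largely cannot be told apart there. Trp53, the deleted gene, was well above background on its probe on all 41 arrays, between -2.25 and 3.74, and the position of that probe against the deleted part was not examined. For 3 HFD epithelial tumors (40R4A, 57R and 65R) the deposited matrix and the scanner files disagree on which array is which, and the scanner files' own labels were kept. Among the spindle cell tumors, M32L of the LFD group and M76R of the LFD-HFD group stood apart through high adipocyte markers, and results that rest on them are given with and without them. The HFD epithelial tumors 42L4B and 60L had a slide and a scan session of their own, and 53.5% and 47.5% of their reference spots were well above background, against 65% to 94.5% on the other 27 epithelial arrays. In 60L 22% of spots were outliers. Without this pair none of the 38 genes passed in any comparison of the epithelial tumors either. Epithelial marker genes averaged 0.61 in spindle cell against 1.37 in epithelial tumors with none of 10 past the threshold. Of 10 mesenchymal markers 6, among them Vim and Col1a1, were significantly higher in spindle cell tumors, where 7.92% of all genes were. Without M32L and M76R 4 of these 10 were higher, where 9.21% of all genes were, and again no epithelial marker passed.

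Most of the pathway gave less signal in the tumors than in the reference pool. Of the 38 genes, 31 had a mean below 0 in the epithelial tumors, and 24 were below 0 in every epithelial tumor. The genes with a mean above 0 were Acsl4 at 2.07 ± 1.35 (SD, n = 28), Acox3 at 0.72 ± 0.34 (n = 28), Ppard, Acsl3, Ucp2, Ucp3 and Slc27a4. The lowest were Fabp3, the binding protein of heart and muscle, at -4.56 ± 1.14 (n = 28), Ppara at -3.93 ± 0.76 (n = 28), and Cpt1b, the muscle form of the carnitine transferase, at -3.90 ± 0.49 (n = 28). The liver form Cpt1a lay near the pool at -0.22 ± 0.45 (n = 28). The levels of Ppara and Acox3 depended on the probe. Other Ppara probes averaged -1.14 (r = 0.60 with the one used, over 41 arrays) and -4.16 (r = 0.83). Other Acox3 probes averaged -0.60 (r = 0.29) and 1.18 (r = 0.615). Ppara values below are those of 1 probe of 3. These ratios set each gene against the pool and cannot be read as an order of abundance among genes. Outlier spots were left missing, so that n is below 29 for some genes.
The genes differed in how far they varied between tumors. The SD over the epithelial tumors was below 0.4 for 14 genes, among them Etfa and Etfb, which form the electron transfer flavoprotein, at 0.26 each. It lay from 0.4 to 1 for 17 and above 1 for 7, namely Acot2, Acsl4, Pdk4, Cd36, Fabp5, Fabp3 and Ppargc1a. Cd36, the fatty acid translocase, ranged from -6.38 to -0.89 with a median of -3.47. Pdk4, the kinase that turns off pyruvate entry when fat is burned, ranged from -4.83 to 0.88 with a median of -3.02. Acot2, a mitochondrial acyl-CoA thioesterase, ranged from -5.20 to 1.61, the latter in 60L, with the next highest at -0.75. Its probe was well above background in only 20 of 29 epithelial tumors, and near-identical thioesterase genes could share its signal. Crat was well above background in 24 of 29 epithelial and 9 of 12 spindle cell tumors, and no probe of the 38 was saturated.

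**Figure D1:**
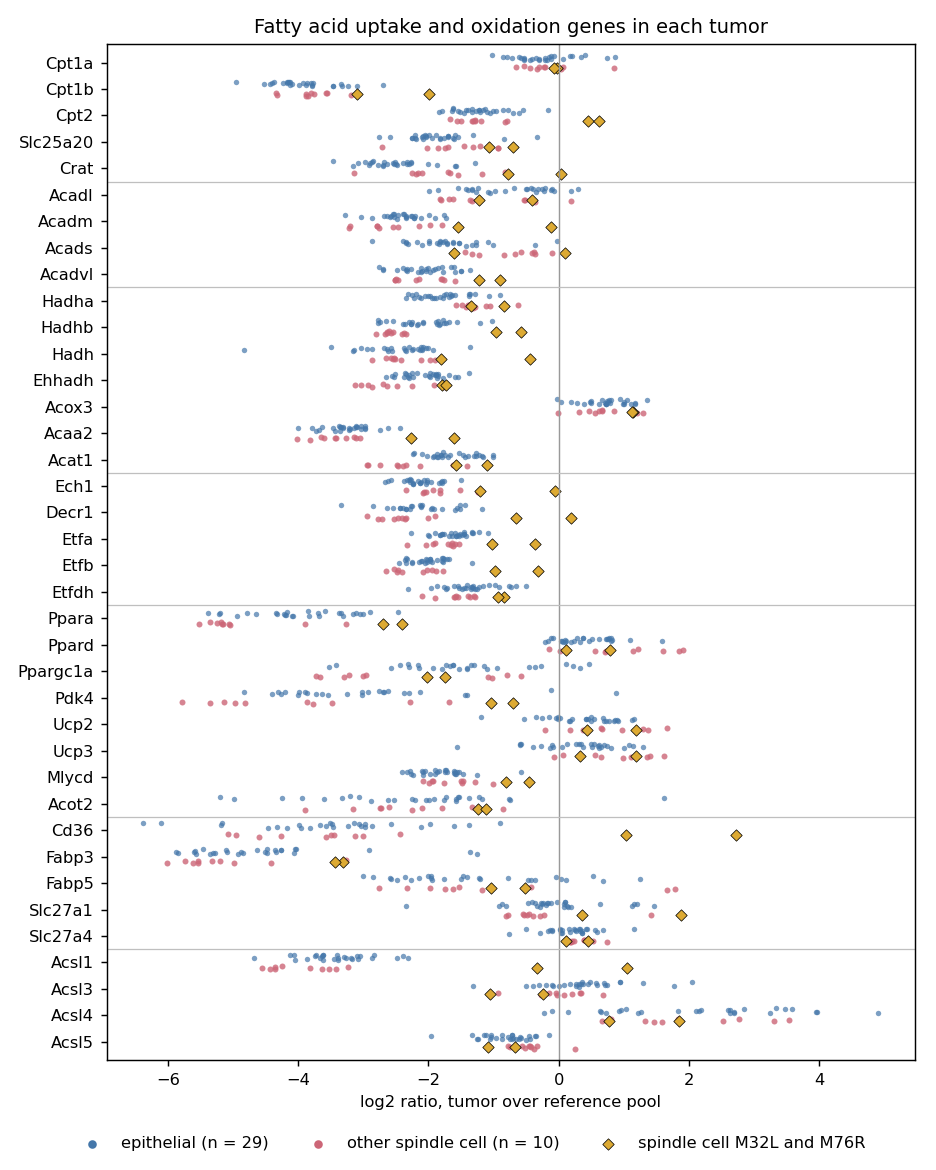
Log2 ratio of tumor over reference for each of the 38 genes (rows, grouped by role) in 29 epithelial tumors (blue), 10 spindle cell tumors (pink) and the spindle cell tumors M32L and M76R (gold diamonds). Most genes lie below 0, and the 2 gold tumors lie at the right of many rows, such as Cd36, Acsl1 and Decr1.

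The 4 diet regimens were compared within the epithelial tumors to ask whether dietary fat, or its timing, left a difference in the fat-burning genes of the tumors. None of the 38 genes differed significantly across the 4 regimens by limma's F-test, where 0.473% of all genes tested did at an adjusted p under 0.10. The smallest adjusted p-values were 0.188 for Slc27a1, 0.203 for Ucp3 and 0.283 for Decr1, and 9 of the 38 had an unadjusted p under 0.05, against 12.9% of all genes. None was called by limma in any of the 6 pairs of regimens either, whose background was 1.25% for HFD-LFD against LFD, 0.263% for LFD-HFD against HFD, 0.0287% for HFD-LFD against HFD (0.0143% in each direction), and 0% for HFD against LFD, LFD-HFD against LFD and LFD-HFD against HFD-LFD. At an unadjusted p under 0.05 the pairs gave 6 of the 38 for HFD against LFD (9.42% of all genes), 6 for HFD-LFD against LFD (13.5%), 3 for LFD-HFD against LFD (6.56%), 3 for HFD-LFD against HFD (13.4%), 8 for LFD-HFD against HFD (10.4%) and 3 for LFD-HFD against HFD-LFD (5.07%). Of the 55 other fatty acid oxidation genes measured, 1 passed in HFD-LFD against LFD, the carnitine transporter Slc22a5, which was lower by a log2 difference of -0.93 (SE 0.20, adjusted p = 0.0326).

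Slc27a1, which encodes the fatty acid transport protein FATP1, came closest. Its lowest, median and highest values were -2.35, -0.32 and -0.19 in the 8 LFD tumors and 0.08, 0.39 and 1.47 in the 8 HFD tumors. Every HFD tumor was above every LFD tumor, and no other of the 38 genes had groups without overlap in that comparison, where 0.0478% of all genes did. The same values were -0.80, -0.03 and 1.15 in the 7 HFD-LFD tumors and -0.92, -0.24 and 0.20 in the 6 LFD-HFD tumors, overlapping the LFD and the HFD group alike. HFD minus LFD was 1.17 on the log2 scale (SE 0.30), yet with an adjusted p of 0.357 by limma it did not pass over all genes. LFD-HFD minus HFD was -0.98 (SE 0.32, adjusted p = 0.271). Without the 3 HFD tumors of disputed label HFD minus LFD was 1.04 (SE 0.34, adjusted p = 0.204). The larger channel difference was that of the tumor channel, higher by 1.30 (SE 0.34) in HFD than in LFD tumors. The reference channel differed by 0.13 (SE 0.14), each after centring arrays on their median. Without 42L4B and 60L HFD minus LFD was 1.25 (SE 0.33, adjusted p = 0.338). Endothelial markers averaged -1.34 in LFD and -0.60 in HFD tumors, or -0.86 without 42L4B and 60L, and their part in the Slc27a1 values was not tested. The Slc27a1 probe lies at chr8:74110256-74110315 (NCBI37/mm9, plus strand).
Ucp3 and Ucp2, uncoupling proteins of the inner mitochondrial membrane, were also highest on average in HFD tumors. Ucp3 was 0.04 ± 0.74 in LFD, 0.80 ± 0.31 in HFD, 0.39 ± 0.46 in HFD-LFD and -0.25 ± 0.45 in LFD-HFD tumors (SD, n = 8, 8, 7 and 6). All 8 HFD tumors, from 0.50 to 1.30, lay above all 6 LFD-HFD tumors, from -0.59 to 0.38, which held for no other of the 38 genes and for 0.493% of all genes without regard to direction. LFD-HFD minus HFD was -1.05 for Ucp3 (SE 0.28, adjusted p = 0.184) and -0.69 for Ucp2 (SE 0.27, adjusted p = 0.355), and HFD minus LFD was 0.76 for Ucp3 (SE 0.26, adjusted p = 0.415). The highest Ucp3 values of the HFD group were those of 42L4B and 60L, and without them these Ucp3 differences were -0.91 (SE 0.30) and 0.62 (SE 0.28). On the 1 slide that held both HFD and LFD-HFD tumors, 2 of each, the differences had the same sign, -0.82 for Ucp3, -0.66 for Ucp2 and -1.40 for Slc27a1. The Ucp3 values rest on the probe at chr7:107630399-107630458 (NCBI37/mm9, plus strand). The other Ucp3 probe was well above background on 5 of 41 arrays and did not follow it (r = 0.06 over 41 arrays), so that the measured pattern is that of 1 probe whose values resemble those of Ucp2.

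Among the enzymes, Decr1, which reduces the double bonds of unsaturated fatty acids, was lowest in LFD tumors. Its median was -2.37 in 8 LFD tumors (-3.34 to -1.95) and -1.68 in 6 HFD-LFD tumors (-2.35 to -1.18), and the groups overlapped. HFD-LFD minus LFD was 0.70 (SE 0.23, adjusted p = 0.165), and LFD-HFD minus LFD was 0.60 (SE 0.23, adjusted p = 0.632). Ppara was -4.38 ± 0.88 in LFD (n = 8), -4.22 ± 0.55 in HFD (n = 7), -3.38 ± 0.39 in HFD-LFD (n = 7) and -3.66 ± 0.74 in LFD-HFD tumors (n = 6). Its HFD-LFD minus LFD difference was 1.01 (SE 0.34, adjusted p = 0.18) and its HFD-LFD minus HFD difference 0.84 (SE 0.35, adjusted p = 0.30). LFD-HFD minus LFD was 0.50 for Acadm, the medium-chain dehydrogenase (SE 0.18, adjusted p = 0.625), and 0.72 for Ppara (SE 0.35, adjusted p = 0.761).
Acsl3, an acyl-CoA synthetase of lipid droplets, ran the other way, at 0.78 ± 0.73 in LFD and -0.03 ± 0.63 in HFD tumors (SD, n = 8 each), a difference of -0.81 (SE 0.29, adjusted p = 0.427), which was -0.57 (SE 0.29) without 42L4B and 60L. Here the tumor channel differed by only -0.16 (SE 0.29) and the reference channel by 0.66 (SE 0.34). Etfdh, which hands electrons to ubiquinone, had the smallest p of the 38 in HFD-LFD against HFD, with a ratio difference of 0.58 (SE 0.19, adjusted p = 0.222), followed by Ppara and by Acat1 at 0.43 (SE 0.19, adjusted p = 0.324). For Etfdh the tumor channel differed by -0.08 (SE 0.27) and the reference channel by -0.73 (SE 0.30), so the larger difference was that of the reference channel. The same held for Etfa in HFD-LFD against LFD, where the ratio difference was 0.33 (SE 0.14, adjusted p = 0.294), the tumor channel 0.05 (SE 0.29) and the reference channel -0.34 (SE 0.27). Decr1 and Ppara differed mainly in the tumor channel in HFD-LFD against LFD, by 0.51 (SE 0.24) and 0.92 (SE 0.35), with reference differences of -0.24 (SE 0.11) and -0.14 (SE 0.11). The pool is the same RNA on every array, yet between HFD-LFD and LFD arrays its channel alone differed for 29.2% of all genes and 12 of the 38. In the tumor channel alone 12.7% of all genes and 1 of the 38 passed in that pair, Crat, at 0.93 (SE 0.27, adjusted p = 0.031), with 0.36 (SE 0.15) in the reference channel. In LFD-HFD against HFD-LFD the smallest p-values were those of Ehhadh, a peroxisomal enzyme, at 0.53 (SE 0.17), Cpt1b at 0.68 (SE 0.25) and Ucp3 at -0.64 (SE 0.29), each with an adjusted p of 0.966.

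**Figure D2:**
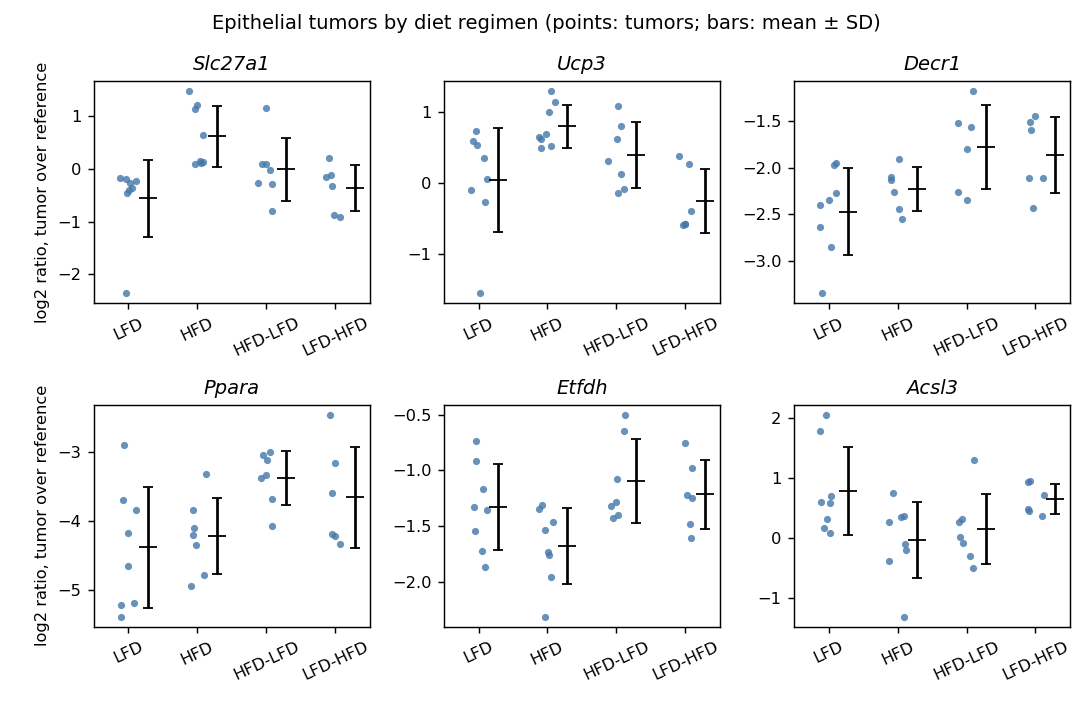
Log2 ratio of tumor over reference in each epithelial tumor by regimen for 6 genes, with mean ± SD beside the points. HFD tumors lie above all LFD tumors for Slc27a1 and above all LFD-HFD tumors for Ucp3, and the groups overlap for Decr1, Ppara, Etfdh and Acsl3.

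Grouped by the diet eaten while the tumor grew, the epithelial tumors gave no called difference in the pathway. By limma none of the 38 genes, and 0% of all genes, passed for adult HFD against adult LFD, where 4.02% of all genes and 1 of the 38 had an unadjusted p under 0.05. The median difference over the 38 was 0.02, against 0.01 over all genes tested, with 20 higher and 18 lower. Ehhadh was -1.95 ± 0.31 in 14 adult HFD tumors and -2.19 ± 0.30 in 15 adult LFD tumors, a fitted difference of 0.27 (SE 0.12, adjusted p = 0.964). Pdk4 differed by 0.88 (SE 0.48) and Slc27a1 by 0.41 (SE 0.22), both with the same adjusted p. Without 65R, an HFD tumor of disputed label with the highest Pdk4 value, the Pdk4 difference was 0.54 (SE 0.40). Adipocyte markers were lower with adult HFD for 9 of 9 genes, with a median difference of -0.48, and none of them passed. By regimen these markers averaged -3.0 in LFD, -3.1 in HFD, -3.0 in LFD-HFD and -2.2 (SD 1.6) in HFD-LFD tumors. Only the HFD-LFD mean thus stood apart, and without 42L4B and 60L the HFD mean was -2.9.
Grouped by pubertal diet, 0% of all genes and none of the 38 passed, but the differences spread wider. Here 8 of the 38 had an unadjusted p under 0.05, 5 higher and 3 lower with pubertal HFD, against 9.67% of all genes, and the median over the 38 was 0.11 against -0.04 over all genes. Ucp3 was 0.61 ± 0.43 in 15 pubertal HFD and -0.08 ± 0.63 in 14 pubertal LFD tumors, a difference of 0.70 (SE 0.19, adjusted p = 0.241). Slc27a1 was higher by 0.76 (SE 0.22, adjusted p = 0.259) and Acsl3 lower by a difference of -0.66 (SE 0.22, adjusted p = 0.331). The pubertal groups overlapped for all 3 genes. In the tumor channel alone Slc27a1 differed by 0.93 (SE 0.26, adjusted p = 0.0748) and passed the threshold, as did 1.85% of all genes there. Over all 41 tumors, 21 with pubertal HFD and 20 with pubertal LFD, none of the 38 passed, with a background of 0.00956%, and the smallest adjusted p was 0.532 for Ucp3 at 0.59 (SE 0.18), before Ucp2 at 0.46 (SE 0.17) and Acot2 at 0.87 (SE 0.37). Without M32L and M76R these were 0.66, 0.53 and 1.03, and none passed. The macrophage markers averaged 1.02 in pubertal HFD and 0.79 in pubertal LFD epithelial tumors, higher with pubertal HFD for 8 of 8 genes and called for none. Their medians were 0.80 in LFD, 0.84 in HFD, 1.15 in HFD-LFD and 0.84 in LFD-HFD tumors. HFD tumor 62L had the highest level, at 2.3. The part of these markers in the diet differences was not tested.

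Early tumors were compared with late ones among the epithelial tumors. None of the 38 genes passed by limma, with a background of 0.143% (0.0956% higher and 0.0478% lower in early tumors) and with 4 at an unadjusted p under 0.05, against 13.2% of all genes. Lower in early tumors were 27 of the 38, or 71.1%, against 47.8% of all genes, with a median difference of -0.06 against 0.01 over all genes. All 7 hydratases, hydroxyacyl-CoA dehydrogenases, oxidases and thiolases and all 5 auxiliary and electron transfer genes were among the lower ones, whereas 3 of the 4 acyl-CoA dehydrogenases were higher, with a median of 0.05 over the 4. The median of Ppara was -4.33 in 13 early tumors (-5.38 to -3.01) and -3.68 in 15 late tumors (-4.94 to -2.46). The groups overlapped over most of their range, and early minus late was -0.68 (SE 0.25, adjusted p = 0.259). Fabp3 was lower in early tumors by a difference of -0.97 (SE 0.38, adjusted p = 0.275) and Cpt1a by -0.39 (SE 0.16, adjusted p = 0.303). Skeletal muscle markers averaged -4.55 in early and -4.18 in late tumors, lower in early ones for 8 of 10 genes, and adipocyte markers -2.94 and -2.74, lower for 8 of 9, with none called. The late tumor 19R had both the highest Fabp3 value, -1.26, and the highest muscle markers, at -2.41, and without it the Fabp3 difference was -0.77. The part of these markers in the onset differences was not tested.
On the 3 slides shared by early and late epithelial tumors, Ppara was lower in the early ones each time, by -0.23, -1.26 and -0.37, and so was Cpt1a, by -0.22, -0.70 and -0.15. Fabp3 was lower on 1 slide, at -1.04, and higher on the others, at 0.24 and 0.51. Each of these values rests on 1 to 3 tumors a side. Of the 55 other fatty acid oxidation genes, 42 were lower in early tumors and none passed, with the smallest adjusted p of 0.156 for the transporter Slc27a2.
The onset difference was also compared between adult diets. None of the 38 genes passed, with a background of 0%, and the smallest p-values were those of Crat, Cd36 and Fabp5. Early minus late was larger on adult HFD than on adult LFD by 0.91 for Crat (SE 0.34, adjusted p = 0.813), and smaller by differences of -1.90 for Cd36 (SE 0.89) and -1.64 for Fabp5 (SE 0.78), both with an adjusted p of 0.813. Cd36 averaged -4.38 in 6 early and -2.81 in 7 late tumors on adult HFD, and -3.23 in 7 early and -3.56 in 8 late tumors on adult LFD. Adipocyte markers averaged -3.38, -2.73, -2.51 and -2.75 in the same 4 groups, and their part in the Cd36 values was not tested.

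Within the 12 spindle cell tumors, 3 per regimen, none of the 38 genes and 0% of all genes passed by limma in any diet or onset comparison. The share of all genes at an unadjusted p under 0.05 was 3.74% across regimens, 2.38% by adult diet, 8.31% by pubertal diet and 2.03% by onset, and 1, 0, 2 and 1 of the 38 were among them. M32L and M76R stood apart. Their 9 adipocyte markers averaged 1.75 and 3.60, against -4.96 to -3.16 in the other 10 spindle cell tumors and -5.04 to -0.29 in the epithelial tumors. Their endothelial markers, at 0.69 and 1.17, also lay above the range of the other 10, from -1.27 to -0.10. In bulk tumor RNA a larger share of fat cells and more RNA per cell cannot be told apart.
Fatty acid genes stood high in the same 2 tumors. For 18 of the 38 genes both M32L and M76R lay above all 10 others, where this held for 8.68% of all genes, and for none did both lie below, where 9.85% of all genes did. Cd36 was 1.03 in M32L and 2.72 in M76R, where the other 10 ran from -5.08 to -2.43 with a median of -3.53. Acsl1, the main synthetase of adipocytes, was -0.33 and 1.05, against -4.56 to -3.23. Cpt2 was 0.46 and 0.61 against -1.66 to -0.79, Decr1 -0.65 and 0.19 against -2.95 to -1.90, and Hadhb -0.96 and -0.58 against -2.80 to -2.35. The others of the 18 were Cpt1b, Crat, Acadm, Acadvl, Hadh, Acaa2, Ech1, Etfa, Etfb, Etfdh, Ppara, Pdk4 and Mlycd, so that all 3 electron transfer genes were among them. The 20 for which it did not hold were Cpt1a and Slc25a20 of the shuttle, the enzymes Acadl, Acads, Hadha, Ehhadh, Acox3, Acat1 and Acot2, the regulators and switches Ppard, Ppargc1a, Ucp2 and Ucp3, and Fabp3, Fabp5, Slc27a1, Slc27a4, Acsl3, Acsl4 and Acsl5. Acads was 0.10 in M76R, above the other 10, which ran from -1.44 to -0.10, and -1.61 in M32L, below them. No test was made, because these tumors were singled out by their values.

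**Figure D3:**
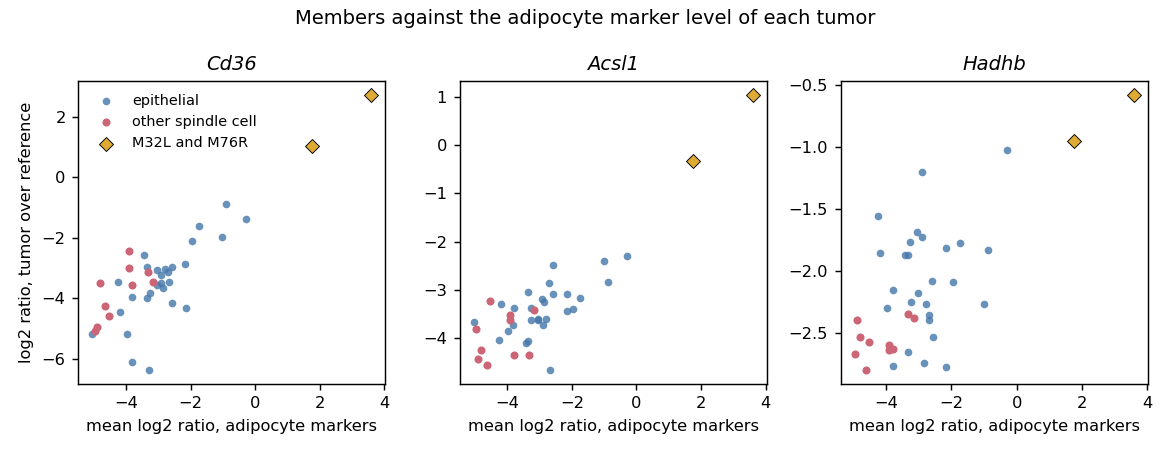
Log2 ratio of Cd36, Acsl1 and Hadhb against the mean log2 ratio of 9 adipocyte markers in each tumor, with epithelial tumors in blue, spindle cell tumors in pink, and M32L and M76R as gold diamonds. The 2 diamonds stand at 1.75 and 3.60 on the marker axis and at the top of each panel.

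Of the spindle cell comparisons, Fabp5, a fatty acid binding protein of epidermis and macrophages, showed the smallest p. It was -2.75, -2.32, -1.97, -1.74, -1.63 and -1.53 in the 6 tumors with pubertal HFD and -1.17, -1.04, -0.52, -0.43, 1.66 and 1.78 in the 6 with pubertal LFD. The groups did not overlap, which held for no other of the 38 and for 0.531% of all genes, but the difference of -2.04 (SE 0.56) had an adjusted p of 0.563 by limma. Without M32L and M76R it was -2.45 (SE 0.62, adjusted p = 0.878). On each of the 3 spindle cell slides it had the same sign, at -2.33, -1.69 and -1.19. Acsl4, which activates arachidonic acid, differed by 1.09 (SE 0.45, adjusted p = 0.581) and had the opposite sign on 1 slide. Cpt2 differed by -0.81 (SE 0.39, adjusted p = 0.607), and -0.26 (SE 0.21) without M32L and M76R, which both belong to the pubertal LFD group. The Acsl4 difference was 1.08 (SE 0.56) without them. The median difference over the 38 was -0.27 against 0.04 over all genes, with 10 higher and 28 lower, but 0.03 against 0.03 without M32L and M76R, with 22 higher and 16 lower.
Across the 4 regimens the smallest p-values were those of Fabp5, Acsl4 and Cd36, all with an adjusted p of 0.977. Adult HFD against adult LFD gave the smallest p-values for Acads at 0.49 (SE 0.30), Slc27a1 at 0.68 (SE 0.48) and Hadha at 0.25 (SE 0.20), with adjusted p-values of 0.9996. Without M32L and M76R these were 0.25, 0.46 and 0.19, and Slc27a1 was 0.29 (SE 0.38) without M76R alone. Without M32L, M76R and M86R, another tumor of the LFD-HFD group, the Acads difference was -0.055. Early spindle cell tumors, 3 against 9, had Ppara at -5.52, -5.36 and -5.25, below all late tumors, which ran from -5.19 to -2.41, and a difference of -1.17 (SE 0.63), which was -0.69 (SE 0.43) without M32L and M76R. No other of the 38 was without overlap there, and 0.292% of all genes were. Ppargc1a differed by -1.41 (SE 0.64) and Acox3 by 0.42 (SE 0.26), with adjusted p-values of 1 for all 3, and without M32L and M76R by -1.40 and 0.56. The adult diet difference was also compared between histologies, and none of the 38 passed, with a background of 0.00478%. The smallest p-values were those of Cpt1b at -0.63 (SE 0.35), Acads at 0.42 (SE 0.40) and Ech1 at 0.30 (SE 0.28), with adjusted p-values of 1. Without M32L and M76R they were -0.51, 0.19 and 0.15. Cpt1b was -0.345 without M32L alone, and Ech1 was 0.03 and Acads 0.29 without M76R alone.

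Spindle cell tumors were then compared with epithelial tumors. At the threshold of 0.05 used here, 5 of the 38 genes passed, where 20.2% of all genes did. Higher in spindle cell tumors were 4, against a background of 7.92%, and lower was 1, against 12.2%. The median difference over the 38 was 0.11, against -0.07 over all genes. Acads, the short-chain acyl-CoA dehydrogenase (probe at chr5:115560887-115560946, NCBI37/mm9, minus strand), had a median of -0.62 over the 12 spindle cell tumors (-1.61 to 0.10) and of -1.75 over the 29 epithelial tumors (-2.87 to -0.03). The groups overlapped, and the difference was 0.95 (SE 0.20, adjusted p = 0.000654). Hadha, the alpha subunit of the trifunctional protein (chr5:30446215-30446274, minus strand), had medians of -1.33 (-1.58 to -0.62) in spindle cell and -1.80 (-2.35 to -0.90) in epithelial tumors. Its difference was 0.55 (SE 0.13, adjusted p = 0.00164).
Crat, carnitine acetyltransferase (chr2:30265479-30265538, minus strand), had medians of -1.69 (-3.14 to 0.04) in spindle cell and -2.52 (-3.46 to -1.29) in epithelial tumors. Its difference was 0.87 (SE 0.21, adjusted p = 0.00244). Ech1, an isomerase for unsaturated fatty acids (chr7:29616256-29616416, plus strand), had medians of -1.82 (-2.35 to -0.06) and -2.13 (-2.66 to -1.51), a difference of 0.52 (SE 0.14, adjusted p = 0.00969). Acat1, the thiolase of ketone body use (chr9:53389868-53389927, minus strand), was lower, with medians of -2.36 (-2.94 to -1.11) in spindle cell and -1.72 (-2.24 to -1.01) in epithelial tumors. Its difference was -0.55 (SE 0.16, adjusted p = 0.00997). All 5 overlapped between histologies, and Crat was dim in part of the tumors, as given above.

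The channels were then examined apart, with each channel centred on its array's median. For Acads the reference channel was lower on the spindle cell arrays by a difference of -1.22 (SE 0.10, adjusted p = 9.8e-13) and the tumor channel by only -0.24 (SE 0.21, adjusted p = 0.43). Ech1 gave -0.71 (SE 0.07) in the reference and -0.17 (SE 0.15) in the tumor channel, and Hadha -0.73 (SE 0.12) and -0.16 (SE 0.16). For these 3 genes the centred tumor signal was no higher in the spindle cell tumors, and the higher ratio went with a lower reference signal. No scan session held both histologies, so within a channel, tumor and array differences cannot be told apart. For Crat the reference gave -0.53 (SE 0.11) and the tumor channel 0.37 (SE 0.25, adjusted p = 0.31). Acat1 alone of the 5 differed in the tumor channel, by -0.71 (SE 0.16, adjusted p = 0.0025), with -0.17 (SE 0.08) in the reference. The reference pool, the same RNA throughout, differed between the arrays of both histologies for 35.6% of all genes and 14 of the 38. The tumor channel alone differed for 19.5% of all genes and 2 of the 38, Acat1 and Acadvl, the latter at -0.39 (SE 0.15, adjusted p = 0.0487) with -0.50 (SE 0.07) in the reference.

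**Figure D4:**
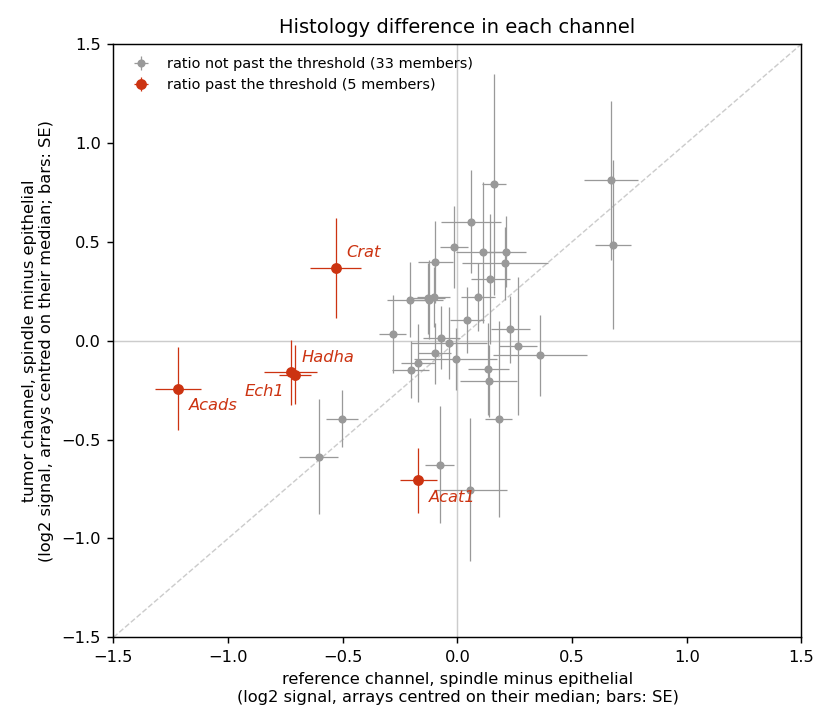
Spindle cell minus epithelial difference in the tumor channel (vertical) against that in the reference channel (horizontal), log2 signal with arrays centred on their median and bars for SE, for the 38 genes. Acads, Hadha and Ech1 lie far to the left and near 0 on the vertical axis, whereas Acat1 lies low on the vertical axis.

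The 2 tumors rich in adipocyte markers also bore on this comparison. Without M32L and M76R, 11 of the 38 genes passed against 22.7% of all genes. Tumors were left out for their values on the spindle cell side only, so these counts are a description and no test of histology. The 6 higher were Acads, Hadha, Crat, Ech1, Ppard and Acsl5, and the 5 lower were Acat1 at -0.72 (SE 0.15), Ehhadh at -0.50 (SE 0.14), Hadhb at -0.49 (SE 0.15), Ppara and Acsl1. With M86R also left out 9 passed, against 22.1% of all genes, and Ech1 and Acsl5 were no longer among them. Hadha and Hadhb, the subunits of 1 complex, thus had differences of opposite sign on the ratio scale, 0.53 and -0.49 without the 2 tumors. The tumor channel did not show opposite signs. Over all tumors and before centring it differed by -0.42 for Hadha and -0.22 for Hadhb, against a median of -0.36 over all genes. The reference channel differed by -0.97 and -0.03, against a median of -0.31.
Of the 55 other fatty acid oxidation genes, 3 were higher and 10 lower in spindle cell tumors, where 7.92% and 12.2% of all genes were. These are ratios, and the channels of these other genes were not examined apart. The lower ones included Acox2, a peroxisomal oxidase of branched chains, at -1.74 (SE 0.47, adjusted p = 0.00803), the peroxisomal transporter Abcd3 at -0.82 (SE 0.14, adjusted p = 8.4e-05) and Oxct1, which starts ketone body use, at -0.58 (SE 0.15, adjusted p = 0.00569). The higher ones included the lipid droplet protein Plin2 at 0.96 (SE 0.19, adjusted p = 0.000343) and Rxra. Without M32L and M76R the counts were 3 higher and 18 lower, where 9.21% and 13.4% of all genes were. Of the marker lists, 5 of 8 endothelial genes and 1 of 8 macrophage genes, Cd163, were higher, 2 of 10 muscle genes were lower, and none of 9 adipocyte genes passed. Without M32L and M76R, 7 of 9 adipocyte and 3 of 10 muscle genes were lower, where 13.4% of all genes were. Leaving out these tumors for their high adipocyte markers by itself lowers the spindle cell mean of such genes. Epithelial tumors with adipocyte markers up to -0.29 were kept, so the adipocyte count is no test. Higher then were 3 of 8 endothelial genes and 1 of 8 macrophage genes, where 9.21% of all genes were. The part of these markers in the differences of the pathway genes was not tested.
Where a gene had a second probe, it did not always give the same difference. Spindle cell minus epithelial was 0.22 on the probe used for Cpt2 and 1.44 on its other probe (r = 0.27 over 41 arrays), 0.07 and 0.76 for Cpt1a (r = 0.59), and 0.30 and 0.90 for Cpt1b (r = 0.50). For Ppara it was -0.565 on the probe used, and -0.565 and -0.178 on the others. Both probes of Fabp3 (r = 0.99) and of Acsl1 (r = 0.95) ran together. None of the 5 genes that passed had another probe under its name.

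How the genes moved together was examined over the 29 epithelial tumors, which share the reference pool and, in part, slides. Of the 703 pairs of the 38 genes, 24 had a positive and 22 a negative Pearson r with an adjusted permutation p under 0.10. Ucp2 and Ucp3 were most alike, with r = 0.95 and rho = 0.95 over 28 tumors (two-sided permutation p = 1e-05, the smallest possible, adjusted p = 0.00176), and r = 0.92 without the 2 tumors farthest from the median. The other Ucp3 probe did not follow the one used, as given above. Hadha and Hadhb had r = 0.88 and rho = 0.90 over 27 tumors (permutation p = 1e-05, adjusted p = 0.00176), and 0.85 without the 2 farthest. Acat1 rose with Ppara at r = 0.65 and rho = 0.67 over 28 tumors (permutation p = 0.00018, adjusted p = 0.00954), and at 0.55 without the 2 farthest.
Hadhb and Acsl4 ran most clearly against each other, with r = -0.82 and rho = -0.81 over 27 tumors (permutation p = 1e-05, adjusted p = 0.00176) and -0.82 without the 2 farthest. Ucp3 and Acsl3 had r = -0.70 and rho = -0.71 over 29 tumors (permutation p = 3e-05, adjusted p = 0.00301) and -0.56 without the 2 farthest. Ppard and its coactivator Ppargc1a had r = -0.66 and rho = -0.75 over 28 tumors (permutation p = 0.00014, adjusted p = 0.00954) and -0.68 without the 2 farthest. Within the 27 tumors of the largest scan session the 6 correlations were 0.95, 0.88, 0.66, -0.82, -0.66 and -0.69 in the order given.
The 16 enzymes of the acyl-CoA dehydrogenase, hydratase to thiolase, and auxiliary and electron transfer groups did not move as a block. They include the peroxisomal Ehhadh and Acat1 of ketone body use. The median r over their 120 pairs was 0.10 in the epithelial tumors, against 0.05 over all 703 pairs. In the 12 spindle cell tumors it was 0.66, and 0.31 in the 10 without M32L and M76R.

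**Figure D5:**
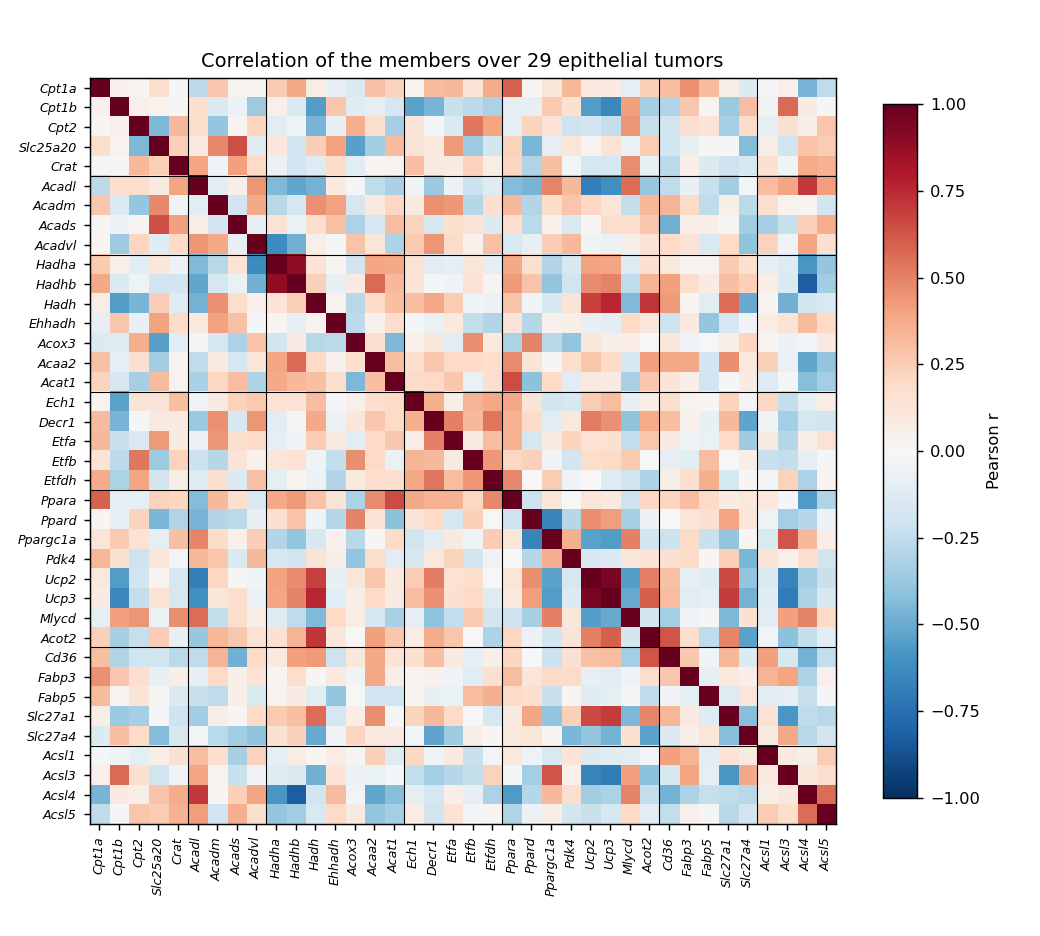
Pearson r between each pair of the 38 genes over 29 epithelial tumors, from -1 (blue) to 1 (red), in the order of the roles, with black lines between roles. Dark red cells mark Ucp2 with Ucp3 and Hadha with Hadhb, dark blue marks Hadhb with Acsl4, and the enzyme blocks are pale with a median r of 0.10.

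Markers of fat and muscle were set against each gene in the same tumors, 76 relations in all. Cd36 rose with the adipocyte markers, with r = 0.74 and rho = 0.66 over 28 tumors (two-sided permutation p = 3e-05 and 0.00023, adjusted p = 0.00228 and 0.0175), r = 0.68 without the 2 farthest tumors and 0.72 within the largest scan session. Acsl1 did so with r = 0.61 and rho = 0.62 (permutation p = 0.00074 and 0.00048, adjusted p = 0.0187 and 0.0182), r = 0.54 without the 2 farthest and 0.63 within the session. Cpt1b rose with the muscle markers at r = 0.63 (permutation p = 0.00039, adjusted p = 0.0148), but its rho of 0.46 had an adjusted permutation p of 0.28. The genes whose adjusted p of r was under 0.10 were these and Etfa against muscle markers, at r = -0.52 and rho = -0.31 (adjusted permutation p = 0.0904 and 0.664) and r = -0.38 without the 2 farthest. Muscle markers ranged from -5.66 to -2.41 in the epithelial tumors.
Acsl4 had the largest SD among the 38 genes well above background in at least 80% of epithelial tumors. It ran from -0.23 to 4.91, the latter in 42L4B with the next highest at 3.97, and had a median of 2.17. Over all genes tested, the genes with the pattern most like it over the 29 epithelial tumors included Trf, with r = 0.90 over 27 tumors, Met at 0.86 over 28, Fam150b at 0.84 over 28 and Nup93 at 0.84 over 27.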

How the data were processed

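RNA of 41 tumors was hybridised in Cy5 against Universal Mouse Reference RNA in Cy3 on Agilent mouse arrays of 2 design versions, in the orientation of the labels. The deposited intensity values are the processed signals of Agilent Feature Extraction, background-subtracted and dye-normalised by that software, version 11.0.1.1 for epithelial and 10.5.1.1 for spindle cell arrays per the file headers, whereas the submitters' processing notes name 8.5.1.1. The deposited log2 matrix of the authors, whose normalisation could only partly be matched to the scanner files, was used as an alternative only. Nothing beyond these processed signals was normalised for the main values.

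Log2 of tumor over reference signal was taken per spot, control spots were left out, outlier spots were set missing (1.19% of gene values, 2.25% of those of the 38 genes), and spots of a probe were averaged. The filter asked for more than 10 units of processed signal, tumor and reference alike, in 80% or more of the arrays, which 27307 probes met, and the brightest probe stood for each of 20913 genes. Groups were compared by limma 3.58.1 (lmFit and eBayes, R 4.3.3) with Benjamini-Hochberg adjustment over all genes, at 0.10 for diet and onset and 0.05 for histology. Replicates were separate tumors. Correlations used 100000 permutations (two-sided) in Python 3.11.15 with scipy 1.17.1. The fits were tested on simulated data.

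The 38 genes and all gene lists were chosen with earlier results of these data known. Genes were described in full if called, and the 3 with the smallest p were named in each comparison. A few genes outside the 38 are not reported here. Alternatives covered background correction (normexp, offset 50), centring, the matrix, filters, probe choice, outlier spots, slide as a block, eBayes settings, a SAM-type statistic (100 permutations), covariates, disputed labels, left-out tumors and thresholds. Slide as a fixed block in spindle cell tumors, early or late tumors only, the tumor channel alone, leaving out M32L and M76R together or singly, leaving out 42L4B and 60L alone, and the tumors left out for Pdk4 were chosen after seeing the data. Probe positions are those of the files (NCBI37/mm9), and promoter windows are those of RefSeq (GRCm38.p6). The arrays were few, and their number limits the precision.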

Additional observations from a re-analysis of the deposited data

Results flagged for a closer look

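Groups of 4 to 10 tumors were examined for the genes named in the epithelial diet comparisons and in the spindle cell comparisons of diet and onset. Of these 67 groups, 5, all epithelial, held a tumor set apart from its group by a gap test (Dixon's at 95%). Chance alone would give that in about 1 of 20 groups. Pdk4, the pyruvate dehydrogenase kinase, gave 3 of them. Its value in LFD tumor 22R was -1.40, the highest of 8, with the next at -3.24. In HFD tumor 65R, one of the 3 with a disputed label, it was 0.88, the highest of 6, with the next at -2.68. In LFD-HFD tumor 71L it was -0.11, the highest of 6, with the next at -2.37.

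LFD tumor 13L gave the others. Its Slc27a1 value was -2.35, the lowest of 8, with the next at -0.47, and its Ucp3 value was -1.56, the lowest of 8, with the next at -0.27.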

How the results depend on the processing

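None of the 38 genes passed under any alternative for adult diet, onset, the spindle cell comparisons, adult diet by histology or onset by adult diet. Across the epithelial regimens 0 passed in the values reported. With normexp and loess 1 passed (0.593% of all genes) and with the matrix 1 (1.07%), Decr1 both times. In the tumor channel alone 3 passed (8.77%), Crat, Slc27a1 and Ucp3. With each tumor left out 0 to 1 passed, the 1 being Ucp3 without LFD late replicate 2 (0.703%). Over the regimen pairs 0 became 1 with normexp (1.2% of all genes in that pair) and 2 with the matrix (2.06%), Decr1 and Ppara. In the tumor channel it became 2, Crat in both pairs, where 12.7% and 5.8% of all genes passed. With a tumor left out it was 0 to 1. The count was 1 without LFD late replicate 1 (2.62% of all genes in that pair), 2 (0.449%) or 4 (0.736%). For pubertal diet in epithelial tumors it became 3 with normexp (0.889% of all genes; Acot2, Slc27a1, Ucp3) and 1 in the tumor channel (1.85%; Slc27a1), and in all tumors 1 without M32L, M86R and M76R (0.105%; Ucp3). For histology, 5 (20.2% of all genes) became 10 with the SAM-type statistic (25.6%), 8 with regimen as a covariate (20.7%), 3 in late tumors (11.2%; Acads, Crat, Hadha), 0 in early tumors (436 genes), 9 without M32L, M86R and M76R (22.1%), 11 without M32L and M76R (22.7%), 11 at a threshold of 0.10 (27.6%) and 2 in the tumor channel (19.5%), so that the share of all genes moved as well. The cause of these changes was not tested.

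The sign changed without M32L, M86R and M76R for Acads by adult diet in spindle cell tumors (-0.055) and for Acads (-0.12) and Ech1 (-0.06) in adult diet by histology, and in the tumor channel for Hadha by adult diet in spindle cell tumors (-0.004), Etfdh in HFD-LFD against HFD (-0.082), and Acads (-0.24), Hadha (-0.16) and Ech1 (-0.17) between histologies. Counts of all genes called ranged from 0 to 1834 across the epithelial regimens (99 in the values reported), 0 to 386 for pubertal diet in epithelial tumors (0), 0 to 335 for onset (30), 6 to 3956 over the regimen pairs (323) and 436 to 7892 for histology (4218). No paired analysis was possible because the labels give no replicate numbers, and numbers in accession order pair nothing. Probes dim in part of the tumors, such as those of Crat and Acot2, limit what their values show.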
